A study of Mus musculus with 6 samples.

Results

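Glutamate is the main excitatory transmitter of the hippocampus, and the 7 genes described here encode proteins that load it into vesicles, clear it from the synaptic cleft and turn it into glutamine. They are the vesicular transporters Slc17a7 (VGLUT1), Slc17a6 (VGLUT2) and Slc17a8 (VGLUT3), the plasma membrane transporters Slc1a2 (GLT-1), Slc1a3 (GLAST) and Slc1a1 (EAAC1), and glutamine synthetase, Glul. The genes were taken by symbol from the deposited TPM table, whose values are relative levels scaled to gene length, and joined by gene identifier to the count table. All 7 were found among 55411 annotated genes, and all 7 passed the filter on low counts.

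Bulk RNA-seq libraries of mouse hippocampus came from a clothianidin (CLO) group, with 3 libraries, and a vehicle control group, with 3. Clothianidin belongs to the neonicotinoids, insecticides whose target is the nicotinic acetylcholine receptor. The design text states that C57BL/6N males received CLO at 50 mg/kg/day, the level named as giving no observed adverse effect, and the extraction protocol names offspring as the source of the RNA. The samples were therefore read as offspring of dosed or vehicle-treated sires. Their sex, age, litter and sire are not given in the labels. Whether the 3 libraries within each group stem from different litters is also unstated, so p-values measure only the spread between these libraries, which may be technical. CLO libraries held 19637402 to 21189231 counts and control libraries 25232305 to 26812580. Markers of CA1, of CA2 and CA3 and of dentate granule cells were detected in every library, as fits the labelled tissue. Summed over 9 spermatid transcripts, control replicates 1 and 2 stood at 12.2 and 4.90 CPM (counts relative to the scaled library total), against at most 0.192 CPM in each other library, so the results for Slc17a6, Slc1a2, the shares and the marker lists beside them are also given without these libraries. Control replicate 3 is then the only control library, and it is assumed to vary like the CLO libraries in any test.

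In textbook accounts, glutamate released at a synapse is taken up mainly by astrocytes through GLT-1 and GLAST, amidated to glutamine by glutamine synthetase, and returned to neurons, where it is turned back into glutamate. VGLUT1 is the usual vesicular transporter of hippocampal pyramidal and granule cells. VGLUT2 is typical of thalamic and other subcortical neurons and is also found in retrohippocampal cortex, while VGLUT3 marks a subset of CCK interneurons and serotonin neurons. EAAC1 is the neuronal plasma membrane transporter.

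The promoter windows of 4 of the genes are shown because these genes mark the extremes of the results below: Slc17a6 and Slc1a2 varied most between libraries in TPM, Glul varied least, and Slc17a7 had the highest level. Each window runs from 250 bases before to 50 bases after a RefSeq gene start (build GRCm38.p6, not the GRCm39 of the deposited tables) and is written 5′ to 3′ on the gene's strand, which is the plus strand for all 4. Capitals mark the motifs searched on both strands: the TATA box TATAAA, the CCAAT box, the GC box GGGCGG and the E-box CAGCTG, which can overlap one another.
Slc17a6, chr7:51621580-51621879: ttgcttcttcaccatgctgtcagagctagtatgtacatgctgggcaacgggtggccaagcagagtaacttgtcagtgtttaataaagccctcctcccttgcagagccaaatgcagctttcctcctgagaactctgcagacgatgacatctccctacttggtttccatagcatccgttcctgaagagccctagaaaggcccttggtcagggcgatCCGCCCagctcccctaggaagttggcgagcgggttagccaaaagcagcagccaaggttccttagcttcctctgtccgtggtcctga
Slc17a7, chr7:45163671-45163970: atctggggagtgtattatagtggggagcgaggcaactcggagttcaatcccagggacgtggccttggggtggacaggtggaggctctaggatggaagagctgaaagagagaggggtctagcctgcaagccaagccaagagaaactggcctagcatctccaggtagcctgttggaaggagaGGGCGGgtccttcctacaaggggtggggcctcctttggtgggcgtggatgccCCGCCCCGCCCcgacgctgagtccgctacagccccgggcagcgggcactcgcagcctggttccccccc
Slc1a2, chr2:102706188-102706487: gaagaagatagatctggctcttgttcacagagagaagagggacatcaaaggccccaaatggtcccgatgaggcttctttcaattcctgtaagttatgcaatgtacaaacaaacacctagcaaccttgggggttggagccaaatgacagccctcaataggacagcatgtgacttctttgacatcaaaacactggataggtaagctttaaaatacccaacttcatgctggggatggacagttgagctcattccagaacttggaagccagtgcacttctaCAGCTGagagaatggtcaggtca
Glul, chr1:153899679-153899978: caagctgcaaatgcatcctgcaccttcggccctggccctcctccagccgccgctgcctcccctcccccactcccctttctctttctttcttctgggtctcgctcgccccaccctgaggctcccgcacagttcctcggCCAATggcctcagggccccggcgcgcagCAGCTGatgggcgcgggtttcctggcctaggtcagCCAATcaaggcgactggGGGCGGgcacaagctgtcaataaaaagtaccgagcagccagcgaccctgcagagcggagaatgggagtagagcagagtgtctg
All 7 genes matched RefSeq windows, 9 in total, since Slc17a6 and Slc17a8 have a second annotated start. The Slc17a7 window held 3 matches to GGGCGG, and the Slc17a6 window held 1. GGGCGG was found in 35.7% of 32851 windows of the same length. The Slc1a2 window held 1 match to CAGCTG (16.3% of all windows) and 1 CpG. The Glul window held 17 CpGs, 2 matches to CCAAT (37.4% of all windows) and 1 match each to GGGCGG and CAGCTG. Whether each RefSeq start is the start of the deposited gene was not checked between the builds. A window, that of Slc1a2 included, may therefore lie at a start inside the gene. The TATA box letters, present in 13.6% of all windows, were matched only in the Slc1a3 window among the 9. These matches describe letters in these windows and were not tested against expression.

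The 7 genes differed widely in level. Ordered by the mean of the group means, Slc17a7 stood first at 739 TPM, then Glul at 540.3, Slc1a2 at 176, Slc1a3 at 129, Slc1a1 at 37.2, Slc17a6 at 5.96 and Slc17a8 at 0.957 TPM. Among all 16129 genes tested, Slc17a7 was at the 99.2 percentile of mean TPM, Glul at the 98.8 percentile and Slc17a8 at the 12.3 percentile. Of the 6 neighbouring pairs in this order, 3 were separated in all libraries: Glul above Slc1a2, Slc1a3 above Slc1a1, and Slc1a1 above Slc17a6. The lowest Slc17a7 library (557 TPM) was below the highest Glul library (622 TPM). The ranges of Slc1a2 and Slc1a3 also overlapped, as did those of Slc17a6 and Slc17a8.

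**Figure D1:**
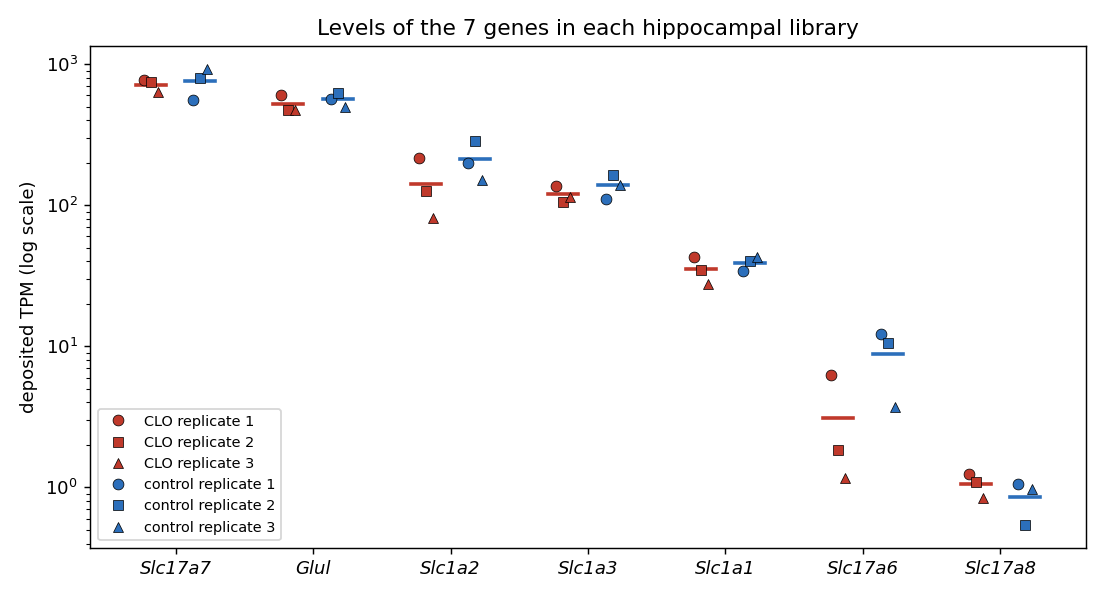
Deposited TPM of each gene on a log axis, with 3 CLO libraries (red, left of each pair) and 3 control libraries (blue, right), point shape for the replicate number and a line for the group mean. The CLO and control points overlap for all 7 genes, and Slc17a6 has the widest range, 1.17 to 12.1 TPM.

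None of the 7 genes differed between the groups past the adjusted threshold by edgeR's quasi-likelihood test (Benjamini-Hochberg adjustment over all genes tested, threshold 0.05), and 0% of all genes tested passed it (204 genes passed by DESeq2, none of them among the 7). At an unadjusted p under 0.05, 1 of the 7 was called, Slc17a6, against 13.4% of all genes tested (2167 genes). That count was 1 by DESeq2 too, where Slc1a2 (unadjusted p = 0.0426) took the place of Slc17a6 (unadjusted p = 0.0507), and 1 by limma-voom. In 5 of the 7 the fitted value was below 0, as in 51.8% of all genes tested, and the median log2 fold change of the 7 was -0.05, beside -0.01 over all genes tested. In scaled CPM the CLO libraries all lay apart from the control libraries for 1 of the 7, Slc17a8, against 14.5% of all genes tested. It was higher in CLO, where 7.84% of all genes had every CLO library above every control library, and 0 of the 7 had every CLO library below, as 6.70% of all genes did. In TPM the groups overlapped for all 7.

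Slc17a7, which fills glutamatergic vesicles in pyramidal and granule cells, did not differ beyond its spread. It was at 774, 743 and 632 TPM in CLO replicates 1, 2 and 3, against 557, 801 and 927 TPM in control replicates 1, 2 and 3. The control libraries enclosed all CLO libraries, with control replicate 1 lowest and control replicate 3 highest. In scaled CPM (by TMM factors) its mean was 1939 ± 138 in CLO and 1906 ± 553 in control (SD, n = 3 each). On the log2 scale the fold change was 0.02 ± 0.20 (SE; adjusted p = 0.965 by edgeR). Its sign was not fixed: it ran from -0.19 without control replicate 1 to 0.23 without control replicate 3.

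Slc17a6 had the largest difference among the 7 and also the largest spread. This second vesicular transporter was at 6.25, 1.84 and 1.17 TPM in CLO replicates 1, 2 and 3, against 12.1, 10.6 and 3.75 TPM in control replicates 1, 2 and 3. CLO replicate 1 exceeded control replicate 3, so the groups overlapped, and the highest library held 10.4 times the level of the lowest. The counts behind these values were 274, 97 and 64 in CLO and 697, 647 and 234 in control. Its mean was 7.17 ± 5.52 scaled CPM in CLO and 19.9 ± 9.50 in control (SD, n = 3 each). The fitted fold was 0.361, a log2 fold change of -1.47 ± 0.56 (SE), with an unadjusted p of 0.0304 and an adjusted p of 0.342 by edgeR. At that unadjusted threshold 7.26% of all genes tested were lower in CLO. The spread of its log2 CPM within groups was at the 99.2 percentile of all genes tested. Without CLO replicate 1 the log2 fold change was -2.30 (adjusted p = 0.0675 by edgeR), a fold of 0.203, and with control replicates 1 and 2 left out the log2 value was -0.32. Over all 16 other settings it stayed below 0 with adjusted p-values from 0.0616 to 0.988 by edgeR, DESeq2 or limma.

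Slc17a6 was read beside markers of tissues that adjoin the hippocampus, since in bulk tissue fewer cells of a type and less RNA per cell cannot be told apart. Summed over 17 neocortical markers, CLO replicates 1, 2 and 3 stood at 414, 322 and 270.3 CPM, against 649.6, 614 and 395 CPM in control replicates 1, 2 and 3. The libraries followed 1 order for this sum and for Slc17a6, from control replicate 1 down to CLO replicate 3. Of the 17 neocortical genes 16 had lower fitted values in CLO (median log2 fold change -0.74). At an unadjusted p under 0.05, 11 were lower, against 7.26% of all genes tested. With all 6 libraries 0 passed the adjusted threshold by edgeR, 4 by DESeq2, 5 by edgeR with no filter and 8 by limma-voom with quality weights. DESeq2, no filter and quality weights called 204, 699 and 3561 genes of the whole table. Without control replicate 3, 1 neocortical gene, Cux2, passed (adjusted p = 0.0496 by edgeR). Without control replicates 1 and 2, 12 of the 17 were lower (median -0.26), 1 of them at an unadjusted p under 0.05, and control replicate 3 (395 CPM) lay inside the CLO range. Over 13 retrohippocampal and subicular markers the sums were 333, 266 and 246 CPM in CLO and 354, 399 and 315 CPM in control. Of 12 tested genes of this list 11 were lower (median -0.40), against 8 of 12 without control replicates 1 and 2 (median -0.22). At an unadjusted p under 0.05 with all 6 libraries, 6 of these 12 were lower and 0 higher. The shares of all genes tested were 7.26% and 6.18%. By edgeR 0 of these 12 passed the adjusted threshold, and 1 by DESeq2. Thalamic and habenular markers, 16 genes, summed to between 149 and 153 CPM in CLO and between 135 and 162 CPM in control. This sum leans on Calb2, which held 9257 counts in the 6 libraries together, ahead of Nwd2 (2701). Of 12 tested thalamic and habenular genes 10 were lower in fitted value (median -0.32), against 7 of 12 without control replicates 1 and 2 (median -0.06). With all 6 libraries 0 of these 12 passed the adjusted threshold by edgeR, and 1 by DESeq2. At an unadjusted p under 0.05, 2 were lower and 1 higher, against 7.26% and 6.18% of all genes tested. Rora, a nuclear receptor, was at 12.48 ± 3.24 CPM in CLO and 20.6 ± 6.99 CPM in control, and Lef1, a transcription factor of the Wnt pathway, at 2.895 ± 0.705 CPM in CLO and 4.63 ± 1.23 CPM in control (SD, n = 3 each; adjusted p = 0.304 and 0.336 by edgeR). Prkcd, a protein kinase C, went the other way, at 22.9, 22.8 and 22.4 CPM in CLO replicates 1, 2 and 3, against 10.6, 6.76 and 8.72 CPM in control replicates 1, 2 and 3 (adjusted p = 0.127 by edgeR, and 0.0258 and 0.0445 without control replicate 1 and without control replicate 3). Every CLO library held more Prkcd than every control library, as in 7.84% of all genes tested. Gbx2 and Pou4f1, also on this list, were at 0 counts in at least 1 library. Summed over 10 meningeal fibroblast markers, the libraries ranged from 357 to 681 CPM in CLO and from 322 to 1202 CPM in control. The sum was highest in control replicates 1 and 2. Ptgds held most of these counts (78987 in the 6 libraries together), ahead of Dcn (8384). Dcn was at 45.9, 57.0 and 55.4 CPM in CLO and 51.6, 75.4 and 70.2 CPM in control. Of 9 tested meningeal genes 7 were lower in fitted value (median -0.16), against 1 of 9 without control replicates 1 and 2 (median 0.60). Among hippocampal lists, 11 of 13 tested CA2 and CA3 markers had higher fitted values in CLO (median 0.48). At an unadjusted p under 0.05, 7 of the 13 were higher, against 6.18% of all genes tested. Without control replicates 1 and 2, 10 of the 13 were higher (median 0.23). CA1 markers were 5 higher and 5 lower (median 0.10), and dentate granule cell markers 8 higher and 8 lower (median 0.02). At an unadjusted p under 0.05, 3 of 10 CA1 markers and 1 of 16 dentate markers were higher, and 0 of either list lower. The shares of all genes tested were 6.18% and 7.26%. In 3 CA1 markers every CLO library was above every control library, as in 7.84% of all genes tested. Without control replicates 1 and 2, CA1 markers were again 5 higher and 5 lower (median 0.12). Dentate granule cell markers were then 3 higher and 13 lower (median -0.16). The part of these tissues in the Slc17a6 values was not tested.

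**Figure D2:**
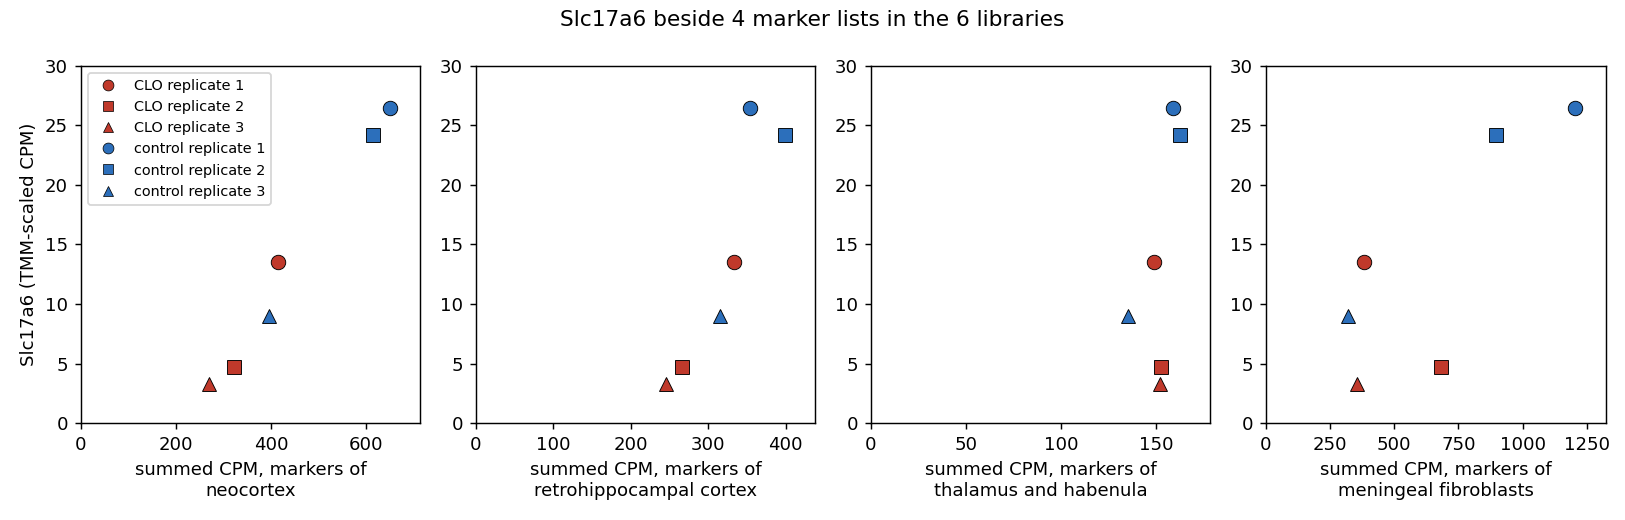
Slc17a6 in TMM-scaled CPM against the summed CPM of 4 marker lists, one point per library (CLO red, control blue, shape for the replicate number). Ptgds holds the most counts in the meningeal sum and Calb2 in the thalamic and habenular sum. Control replicates 1 and 2 stand at the upper right for the neocortical list (Slc17a6 at 26.5 and 24.2 CPM), and CLO replicate 3 at the lower left (3.27 CPM).

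Slc17a8, the transporter of a small set of interneurons and of serotonergic fibres, was near the lower end of detection. It was at 1.25, 1.09 and 0.837 TPM in CLO replicates 1, 2 and 3, against 1.06, 0.543 and 0.97 TPM in control replicates 1, 2 and 3. The groups overlapped in TPM, and control replicate 2 was the lowest library. Its counts were 48, 50 and 40 in CLO and 53, 29 and 53 in control. In scaled CPM the lowest CLO library (2.0425) lay just above the highest control library (2.0363). The log2 fold change was 0.42 ± 0.30 (SE; adjusted p = 0.529 by edgeR), and it was 0.18 without control replicate 2. Among 10 markers of CCK-type interneurons 4 were higher and 6 lower in CLO in fitted value, with 0 past the adjusted threshold by edgeR. At an unadjusted p under 0.05, 2 of the 10 were called, against 13.4% of all genes tested. Of 4 markers of serotonin neurons, Fev was at 0 counts in every library, and the list summed to 1.92 to 3.83 CPM in CLO and 1.53 to 2.35 CPM in control.

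Slc17a7 supplied nearly all of the vesicular transporter message. It made up 99.0%, 99.6% and 99.7% of the summed TPM of the 3 vesicular genes in CLO replicates 1, 2 and 3, against 97.7%, 98.6% and 99.5% in control replicates 1, 2 and 3. The share of Slc17a6 was 0.410% ± 0.339 in CLO and 1.28% ± 0.864 in control (SD, n = 3 each). Its values were 0.799%, 0.246% and 0.185% in CLO and 2.13%, 1.31% and 0.402% in control, with CLO replicate 1 inside the control range. The difference had p = 0.2 by an exact two-sided permutation test, for which 3 against 3 libraries cannot give a p below 0.1. The share of Slc17a8 was 0.146% ± 0.0141 in CLO and 0.119% ± 0.0605 in control (exact permutation p = 0.5). Without control replicates 1 and 2, the CLO mean of the Slc17a6 share (0.410%) stood beside 0.402% in control replicate 3, a comparison with no test. These shares do not depend on how the libraries were scaled.

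Among the plasma membrane transporters, Slc1a2 had a lower mean in CLO without passing the test. Slc1a2 encodes the transporter that carries most glutamate uptake in the forebrain. It was at 215, 125 and 81.1 TPM in CLO replicates 1, 2 and 3, against 198, 286 and 152 TPM in control replicates 1, 2 and 3. CLO replicates 2 and 3 lay below every control library, while CLO replicate 1 lay above 2 of them. Its mean was 828 ± 293 scaled CPM in CLO and 1184 ± 369 in control (SD, n = 3 each). The fitted fold was 0.699, a log2 fold change of -0.52 ± 0.26 (SE), with an unadjusted p of 0.0739 and an adjusted p of 0.406 by edgeR. With 1 library left out, the log2 fold change ran from -0.81 (without CLO replicate 1, adjusted p = 0.1097 by edgeR) to -0.23 (without control replicate 2), and it was -0.11 (adjusted p = 0.925 by edgeR) without control replicates 1 and 2. The deposited gene length of Slc1a2, 13229 bp, was at the 95.8 percentile, and fitted values ran with gene length across all genes. In genes of at most 2010 bp the median log2 fold change was 0.27, and in genes of at least 7597 bp it was -0.25. With each library's length trend removed, that of Slc1a2 was -0.22 (adjusted p = 0.66 by edgeR).

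Slc1a3, the astrocytic transporter GLAST, was at 137, 105 and 115 TPM in CLO replicates 1, 2 and 3, against 111, 165 and 140.1 TPM in control replicates 1, 2 and 3. The groups overlapped, with CLO replicate 2 lowest and control replicate 2 highest. The log2 fold change was -0.10 ± 0.17 (SE; adjusted p = 0.805 by edgeR), and its sign changed with the length trend removed (0.10) and without control replicate 2 (0.04). Slc1a1, the neuronal transporter, was at 43.2, 34.7 and 27.7 TPM in CLO replicates 1, 2 and 3, against 34.1, 40.1 and 43.2 TPM in control replicates 1, 2 and 3. CLO replicate 1 and control replicate 3 were nearly equal and highest. Its log2 fold change was -0.05 ± 0.16 (SE; adjusted p = 0.903 by edgeR), and its sign changed with the length trend removed (0.11) and without CLO replicate 3 (0.03) or control replicate 3 (0.07).

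Within the plasma membrane class, Slc1a2 made up 54.4%, 47.2% and 36.2% of the summed TPM of the 3 genes in CLO replicates 1, 2 and 3, against 57.7%, 58.3% and 45.3% in control replicates 1, 2 and 3. The means were 45.9% ± 9.12 in CLO and 53.8% ± 7.31 in control (SD, n = 3 each). This was a difference of -7.82 percentage points (exact two-sided permutation p = 0.3). Slc1a2 (13229 bp) is longer than Slc1a3 (8772 bp) and Slc1a1 (8257 bp), and shares were not computed with the length trend removed. The part of that trend in the difference was not tested. CLO replicate 1 lay between the control libraries, and control replicate 3 was below both CLO replicates 1 and 2. The difference was -2.98 points without CLO replicate 3 and -12.04 points without either CLO replicate 1 or control replicate 3. Without control replicates 1 and 2 it was 0.607 points, with the CLO mean of 45.9% beside 45.3% in control replicate 3. Slc1a3 made up 41.9% ± 8.53 in CLO and 35.9% ± 5.13 in control (exact permutation p = 0.4), and Slc1a1 12.1% ± 1.104 in CLO and 10.3% ± 2.38 in control (exact permutation p = 0.3). The level of Slc1a2 per Slc1a3 was 1.57, 1.19 and 0.706 in CLO replicates 1, 2 and 3, against 1.78, 1.73 and 1.08 in control replicates 1, 2 and 3. CLO replicate 3 was the only library with less Slc1a2 than Slc1a3.

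**Figure D3:**
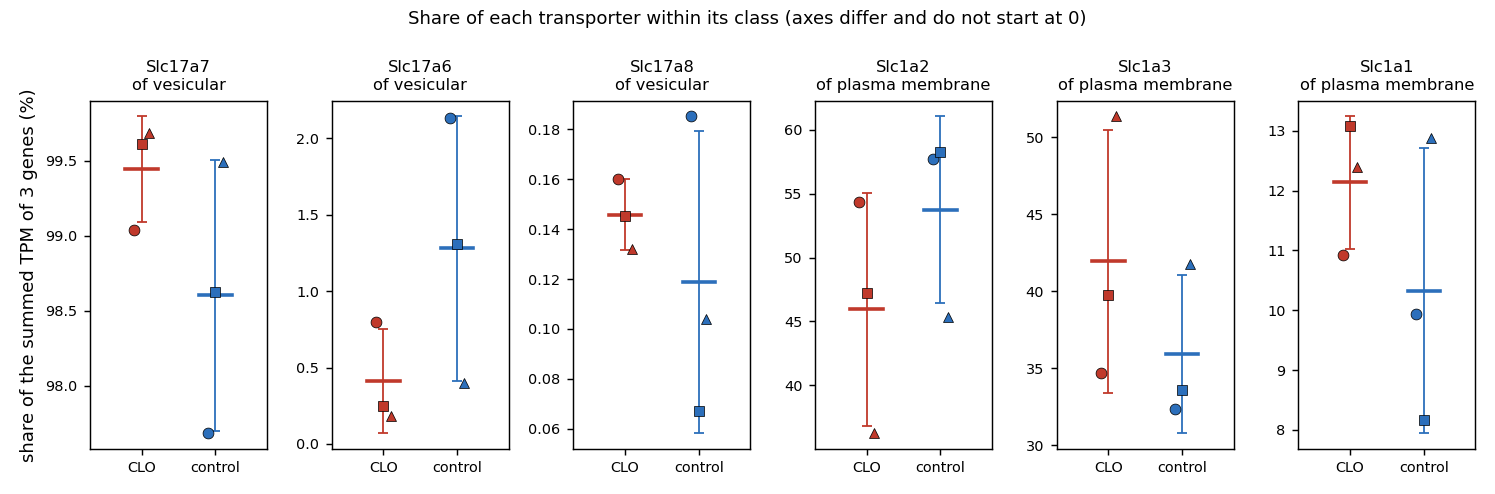
Share of each transporter in the summed TPM of its class in percent (3 vesicular genes on the left, 3 plasma membrane genes on the right), with CLO in red left of control in blue, point shape for the replicate number (circle 1, square 2, triangle 3), lines for means and bars for SD. Axes differ between panels and do not start at 0. Groups overlap in all 6 panels.

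Glul, which encodes the enzyme that makes glutamine from glutamate and ammonia in astrocytes, was the steadiest of the 7. It was at 608, 472 and 472.5 TPM in CLO replicates 1, 2 and 3, against 567, 622 and 499 TPM in control replicates 1, 2 and 3. The groups overlapped, and the highest library held 1.32 times the level of the lowest. Its mean was 1509 ± 66.1 scaled CPM in CLO and 1512 ± 139 in control (SD, n = 3 each). The log2 fold change was -0.0020 ± 0.14 (SE; adjusted p = 0.997 by edgeR), and it ran from -0.05 to 0.08 with 1 library left out. The spread of its log2 CPM within groups was at the 7.14 percentile of all genes tested.

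Astrocyte markers went both ways in fitted value. Of 20 markers other than the 7 genes, 10 were higher and 10 lower in CLO (median log2 fold change -0.08), with 0 past the adjusted threshold by edgeR. Without control replicates 1 and 2, 11 were higher and 9 lower (median 0.03). The list summed to between 4598 and 4693 CPM in CLO and between 4577 and 5637 CPM in control, control replicate 2 being highest, and no marker was at 0 in any library. At an unadjusted p under 0.05, 4 were lower and 0 higher, against 7.26% and 6.18% of all genes tested. Those with the smallest p were Kcnj10, the potassium channel Kir4.1 of astrocyte membranes, Slc7a10, a carrier of small neutral amino acids, and Atp1b2, a sodium pump subunit. Kcnj10 was at 77.2 ± 16.0 CPM in CLO and 122 ± 42.7 CPM in control (SD, n = 3 each; adjusted p = 0.301 by edgeR). Slc7a10 was at 27.9 ± 2.81 CPM in CLO and 36.0 ± 3.57 CPM in control (adjusted p = 0.347 by edgeR), and every CLO library was below every control library. Mlc1 and Htra1 had every CLO library above every control library, and are named here after their values were seen. Such separation held for 1 of the 20 markers downward and 2 upward, against 6.70% and 7.84% of all genes tested. Mlc1, a membrane protein of astrocyte end-feet, was at 248 ± 4.50 CPM in CLO and 220.3 ± 25.5 CPM in control, and Htra1, a serine protease, at 301 ± 5.99 CPM in CLO and 265 ± 14.9 CPM in control (SD, n = 3 each; adjusted p = 0.591 and 0.532 by edgeR). Atp1b2 was at 299 ± 38.8 CPM in CLO and 409 ± 104 CPM in control (adjusted p = 0.3503 by edgeR). Without control replicate 2 the log2 fold change of Kcnj10 was -0.37 in place of -0.67 and that of Atp1b2 -0.23 in place of -0.45. In that setting 0 of the 20 markers had an unadjusted p under 0.05. Without control replicate 1 the 2 values were -0.89 and -0.60, and without control replicates 1 and 2 they were -0.61 and -0.35. Of the 20 markers 5 passed the adjusted threshold with quality weights and 1 with no filter, settings that called 3561 and 699 genes of the whole table. Kcnj10 passed in both (adjusted p = 0.0115 by limma and 0.0080 by edgeR), and Atp1b2 with quality weights (0.0180 by limma). The part of astrocyte content in the Slc1a2 values was not tested.

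**Figure D4:**
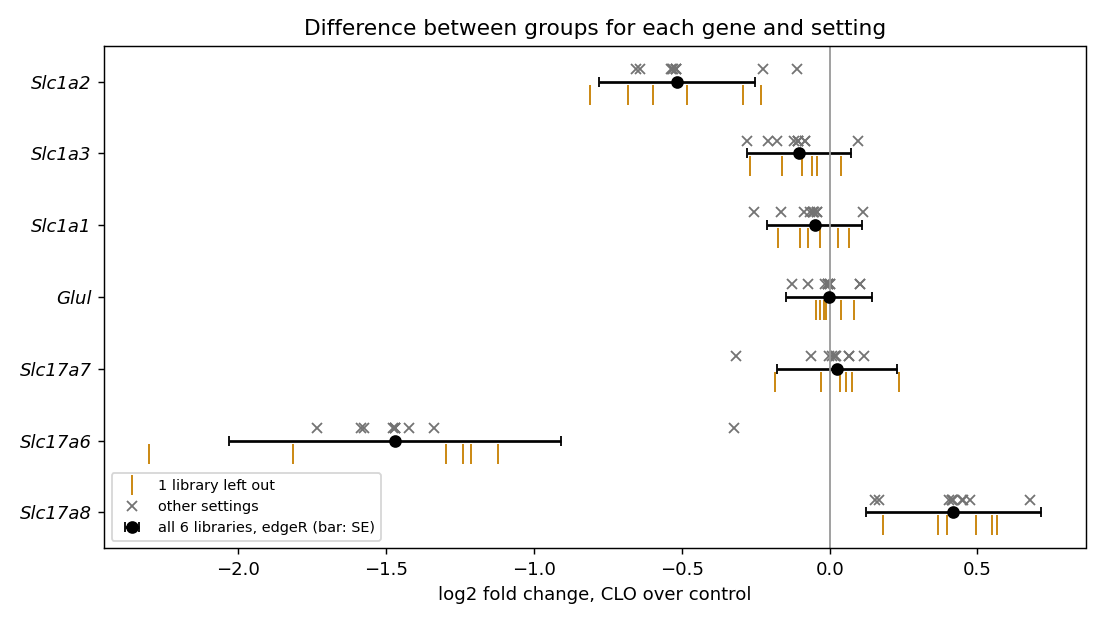
Log2 fold change of each gene, CLO over control, with all 6 libraries by edgeR (black, bar for SE), with 1 library left out (orange ticks) and under the other settings (grey crosses). Slc17a6 stays below 0 in every setting (-2.30 to -0.32) and Slc1a2 likewise (-0.81 to -0.11), while Slc1a3, Slc1a1, Glul and Slc17a7 have values on both sides of 0.

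The other genes of glutamate and glutamine handling were taken from 3 lists of 43 genes in all, of which 41 passed the filter on low counts. Slc1a7, with 1 count in the 6 libraries together, and Slc17a9, with 5, did not. None of the 41 passed the adjusted threshold by edgeR, none by DESeq2 and none by limma-voom. At an unadjusted p under 0.05, 1 was higher and 4 lower in CLO, against 6.18% and 7.26% of all genes tested. The median log2 fold change was -0.04, with 16 higher and 25 lower in fitted value. In scaled CPM 3 of the 41 had every CLO library below and 3 above every control library. The shares of all genes tested were 6.70% and 7.84%.

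Among 7 tested genes of other uptake and exchange, 3 were higher and 4 lower in fitted value. Slc7a11, the cystine-glutamate exchanger xCT, was at 17.5, 15.5 and 12.2 CPM in CLO replicates 1, 2 and 3, against 22.1, 31.5 and 14.3 CPM in control replicates 1, 2 and 3. CLO replicates 1 and 2 exceeded control replicate 3, so the groups overlapped (log2 fold change -0.59 ± 0.26 SE, adjusted p = 0.358 by edgeR), and the value was 0.079 without control replicates 1 and 2 and -0.26 with the length trend removed. Slc7a11 overlaps 2 loci on the same strand, so its counts are uncertain. Its partner chain Slc3a2 was at 144 ± 7.25 CPM in CLO and 138 ± 13.9 CPM in control (SD, n = 3 each; adjusted p = 0.871 by edgeR). Arl6ip5, which encodes an interactor of EAAC1, was at 144.4, 163 and 176 CPM in CLO and 139.9, 117 and 135 CPM in control. Every CLO library was above every control library, though the difference did not pass (log2 fold change 0.31, adjusted p = 0.387 by edgeR) and was 0.09 with the length trend removed. Slc1a4, the neutral amino acid carrier ASCT1, was at 51.7, 44.1 and 41.4 CPM in CLO and 53.0, 63.2 and 53.8 CPM in control, with every CLO library below every control library (adjusted p = 0.394 by edgeR). Slc1a5, the related ASCT2, was at 0.593 ± 0.288 CPM in CLO and 0.468 ± 0.128 CPM in control (adjusted p = 0.748 by edgeR).

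Of 13 glutamine and amino acid carriers, 10 were lower and 3 higher in fitted value, with a median log2 fold change of -0.23. At an unadjusted p under 0.05, 2 of the 13 were lower, against 7.26% of all genes tested. Slc7a8, a carrier of neutral amino acids, was at 48.8, 48.5 and 35.3 CPM in CLO replicates 1, 2 and 3, against 52.7, 70.9 and 60.4 CPM in control replicates 1, 2 and 3 (adjusted p = 0.314 by edgeR). Its groups did not overlap. Slc38a1, a system A carrier that brings glutamine into neurons, was at 73.4, 53.8 and 44.6 CPM in CLO and 72.3, 93.3 and 74.6 CPM in control (adjusted p = 0.335 by edgeR). CLO replicate 1 lay between the control libraries. With the length trend removed, the log2 fold change of Slc38a1 was -0.11 in place of -0.48. Slc38a3, the astrocytic system N carrier that exports glutamine, was at 48.3 ± 3.88 CPM in CLO and 57.8 ± 5.74 CPM in control (SD, n = 3 each; adjusted p = 0.444 by edgeR). Slc6a17, a vesicular carrier of neutral amino acids in neurons, was at 315 ± 21.0 CPM in CLO and 396 ± 90.5 CPM in control (adjusted p = 0.424 by edgeR), and its log2 fold change was -0.07 in place of -0.33 with the length trend removed. Slc38a6 was at most 1.18 CPM in every library.

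Of 21 enzymes and mitochondrial carriers, 10 were higher and 11 lower in fitted value, with a median log2 fold change of -0.0020. Gad2, which makes GABA from glutamate, was at 69.8, 54.2 and 53.7 CPM in CLO replicates 1, 2 and 3, against 72.1, 97.8 and 87.2 CPM in control replicates 1, 2 and 3. Its groups did not overlap, but the gap between CLO replicate 1 and control replicate 1 was small (log2 fold change -0.53 ± 0.17 SE, adjusted p = 0.281 by edgeR), and Gad2 overlaps 2 loci on the same strand, so its counts are uncertain. Gpt2, the mitochondrial alanine aminotransferase that uses glutamate, was at 69.9, 60.0 and 69.0 CPM in CLO and 47.8, 49.6 and 56.3 CPM in control. Every CLO library was above every control library (log2 fold change 0.37 ± 0.14 SE, adjusted p = 0.333 by edgeR). With the length trend removed, the log2 fold change of Gpt2 was 0.58 and that of Gad2 -0.45 (adjusted p = 0.463 for each by edgeR). Gad1, the second enzyme of GABA synthesis, was at 209 ± 17.9 CPM in CLO and 241 ± 18.9 CPM in control (SD, n = 3 each; adjusted p = 0.518 by edgeR). Asns, which uses glutamine to make asparagine, was at 118 ± 12.01 CPM in CLO and 100.3 ± 8.31 CPM in control, and Slc25a11, the oxoglutarate carrier of mitochondria, at 122 ± 12.1 CPM in CLO and 101 ± 17.7 CPM in control. Adjusted p-values of these were 0.484 and 0.455 by edgeR. Glutamate dehydrogenase, Glud1, was at 131 ± 13.2 TPM in CLO and 142 ± 12.3 TPM in control (SD, n = 3 each), and was named for its place in glutamate metabolism after its values were seen.

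**Figure D5:**
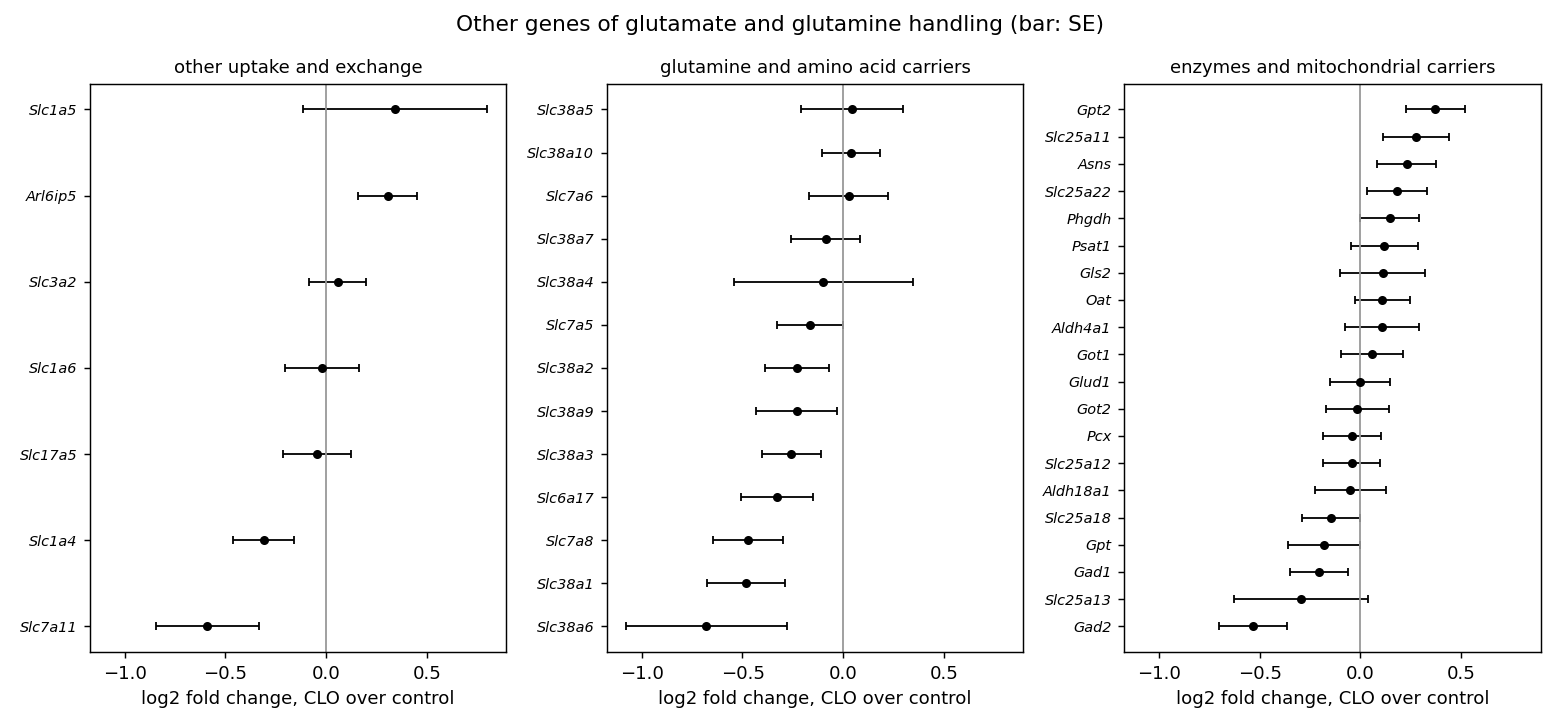
Log2 fold change with SE (CLO over control, edgeR, all 6 libraries) of the tested genes of the 3 lists, sorted within each panel, with 1 enzyme not drawn. The carriers in the middle panel lie mostly below 0 (10 of 13), and the enzymes and mitochondrial carriers on the right lie on both sides of 0.

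The genes whose pattern over the 6 libraries came closest to each of the 7 were found by the root mean square difference of centred log2 CPM, over 8753 genes (8754 for Slc17a8) with a mean of at least 10 CPM. For Slc17a6 these were Cobl (0.20 log2 units), Syt2 (0.31) and Hivep1 (0.35). Cobl, an actin nucleator, was at 13.8, 7.60 and 3.57 CPM in CLO replicates 1, 2 and 3, against 29.7, 28.5 and 10.5 CPM in control replicates 1, 2 and 3, the order of libraries seen for Slc17a6. For Slc1a2 they were Apba1 (0.047), Tns1 (0.070) and Ptprm (0.070). For Slc1a3 they were Ak3 (0.043), Fam107a (0.0505) and Ppp1r3c (0.057), and for Slc1a1 Ripor1 (0.031), Gga3 (0.040) and Mtmr3 (0.040). For Slc17a7 they were Rasl10b (0.048), Gng7 (0.061) and Amph (0.064), and for Glul Sfxn5 (0.028), Cyth3 (0.031) and Cbs (0.034). For Slc17a8 they were Plk5 (0.13), Matn2 (0.13) and Pgam2 (0.14).

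The positions in the deposited table (GRCm39) place Slc1a2 on chromosome 2 (102489004 to 102621129, plus strand), Slc1a3 on chromosome 15 (8663608 to 8740248, minus strand) and Slc1a1 on chromosome 19 (28812449 to 28891360, plus strand). Slc17a7 (44813373 to 44825566) and Slc17a6 (51271754 to 51320867) both lie on the plus strand of chromosome 7. Slc17a8 lies on chromosome 10 (89409882 to 89457115, minus strand) and Glul on chromosome 1 (153775690 to 153785469, plus strand). Slc1a3, Slc17a6, Slc17a7 and Glul each overlap a small annotated locus on the same strand (Gm37310, Gm45072, Mir7055 and Mir8114), and all 4 of these loci had 0 counts in every library. Slc1a2, Slc1a1 and Glul overlap loci on the opposite strand with at most 406 counts in the 6 libraries together (Spata6l). Whether reads in such overlaps were counted or dropped is not given in the sources used here.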

How the data were processed

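The kit kept strand and poly(A) RNA, per the labels' protocols. Tools listed in the submitters' processing notes are cutadapt 2.9, HISAT2 2.2.0 and featureCounts 2.6.0, and the build listed is GRCm39. Which step each tool ran, its options and the annotation release are not stated there. The deposited count table holds raw read counts, and the deposited TPM table follows from those counts and the gene lengths in it to within 5.0e-04. The gene length column is the authors' deposited value in bases. Of 56514 rows, 1103 unannotated loci (0.64% to 0.78% of counts) were left out.

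Counts were tested with edgeR 4.0.16 (R 4.3.3): filterByExpr, TMM scaling, then the quasi-likelihood test (robust) of CLO against control without a block, two-sided, adjusted over 16129 genes at 0.05. The SE is the log2 fold change divided by the root of F. The test was tried on simulated counts with known fold changes. These counts were drawn without a length trend, so the trial does not show how the test performs on these libraries. Shares of TPM were compared by exact permutation tests. Alternatives were DESeq2 1.42.0, limma 3.58.1 (voom, quality weights, log2 of TPM plus 1), other scalings and filters, a replicate block, removal of the length trend, and libraries left out. The genes and lists were chosen with earlier results of these data known. Named genes were the 7, the 5 smallest p of each pathway list, up to 3 of a marker list, and for each of the 7 the 3 closest genes. Of the pathway genes, 1 is counted with its list and not reported here by itself.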

Additional observations from a re-analysis of the deposited data

How the results depend on the processing

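None of the 7 genes passed the adjusted threshold in any of the 16 other settings. With all 6 libraries, edgeR called 0 genes of the whole table (2167 at an unadjusted p under 0.05), against 204 by DESeq2, 3561 by limma-voom with sample quality weights, 699 with no filter, and 0 to 20 with 1 library left out (2 without control replicate 1, 20 without control replicate 3). Of the other glutamate and glutamine genes 8 passed with quality weights and 0 in each other setting. Quality weights gave Slc17a6, Slc1a2 and Slc17a8 adjusted p-values of 0.0616, 0.0790 and 0.0793 by limma. Signs turned for Glul, Slc17a7, Slc1a1, Slc1a3 and Slc3a2, whose values with all 6 libraries by edgeR were near 0. They also turned for Slc1a5 and Slc7a11, at 0.34 and -0.59 with all 6 libraries. Glul was 0.0011 by limma-voom, 0.0012 with the replicate block, 0.10 with the length trend removed and 0.10 without control replicates 1 and 2. Slc17a7 was -0.0024 with quality weights, -0.062 on log2 TPM and -0.32 without control replicates 1 and 2. With the length trend removed Slc1a1 was 0.11 and Slc1a3 0.097. Slc3a2 was -0.066 on log2 TPM, and Slc1a5 and Slc7a11 were -0.045 and 0.079 without control replicates 1 and 2. With 1 library left out the ranges were -0.047 to 0.081 for Glul, -0.19 to 0.23 for Slc17a7, -0.17 to 0.067 for Slc1a1, -0.27 to 0.039 for Slc1a3 and -0.054 to 0.65 for Slc1a5. The cause was not tested. Each share kept its sign with 1 library left out and as a share of raw counts. Without control replicates 1 and 2, a setting chosen after seeing the data, differences in share turned to -0.050 points for Slc17a7, 0.0082 for Slc17a6, 0.607 for Slc1a2 and -0.747 for Slc1a1.

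Deviations of same-numbered libraries from their group means had r over genes of -0.16, -0.095 and 0.28 for numbers 1, 2 and 3. For CLO replicate 3 and control replicate 3, 0.28 was the highest value of either library. CLO replicate 1 correlated best with control replicate 2 (0.43). A batch or litter shared by same-numbered libraries was not tested. With the replicate block 0 genes passed (1874 at an unadjusted p under 0.05), and Slc17a6 had a log2 fold change of -1.58 (adjusted p = 0.288 by edgeR). Counts of 29 to 53 limit what can be said of Slc17a8.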
